A study of Vitis vinifera with 6 samples.

Results

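The stilbene synthase (STS) cluster on chromosome 16 of grapevine was followed in leaves overexpressing the transcription factor gene NAC61. Members were all array features whose identifier began with VIT_16s0100g and whose locus number lay from 00750 to 01200, which gave 39 loci of the 34369 on the array, each measured by 1 probe. The annotation used by the study named 22 of these loci as STS genes. The other 17 are given here by their identifier. Names were at hand only where the study's annotation gave one, and they included genes that the study had called on these same arrays. Named and unnamed loci therefore cannot be compared as classes. No probe, promoter or protein sequence was used.

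Stilbene synthases are type III polyketide synthases that condense p-coumaroyl-CoA with malonyl-CoA to give resveratrol, the parent of the grapevine stilbenoid phytoalexins. Chalcone synthase draws on the same substrates for flavonoids, so both enzymes stand at a branch point after phenylalanine ammonia-lyase (PAL), cinnamate 4-hydroxylase (C4H) and 4-coumarate-CoA ligase (4CL). In grapevine the STS family is greatly enlarged by tandem duplication, and its genes are known to respond to wounding, UV light, pathogens and late ripening under the control of MYB14, MYB15 and several WRKY factors.

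All plants were in vitro plantlets of Vitis vinifera cv. Thompson Seedless, and young leaves were taken 7 days after vacuum infiltration with Agrobacterium tumefaciens strain C58C1. The OX.NAC61 group (3 arrays, 7 plants infiltrated) received 35S:NAC61, in which a constitutive promoter drives NAC61, and the CTRL group (3 arrays, 5 plants infiltrated) received the vector with a non-coding sequence, so both groups had been exposed to the bacterium. The labels give an age of 6 weeks and the methods 5 weeks. Expression was transient and not from a stable line, and the study's methods state that the plants with the highest NAC61 expression were taken for the OX.NAC61 arrays.

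NAC61 (VIT_08s0007g07640) had a log2 level of -2.48, -2.21 and -2.44 in CTRL and of -1.15, -0.66 and -0.47 in OX.NAC61, where a level is the log2 processed signal minus the 75th percentile of its array. The 75th percentile of processed signal ran from 889 to 2577 over the 6 arrays, and 24501 to 28121 features were well above background. Every CTRL array and OX.NAC61 replicate 1 were scanned on the first of 2 days. OX.NAC61 replicates 2 and 3 were scanned on the second, and by their headers CTRL replicate 2 and OX.NAC61 replicate 2 lay on one slide. The headers place OX.NAC61 replicates 1 and 3 at 1 position of 1 slide, so 1 of these records may be wrong. The 6 leaf markers, light-harvesting and photosystem genes and Rubisco activase, were detected on every array and were called lower in OX.NAC61, with log2 fold changes from -1.82 to -0.74. The study had listed them as lower on these arrays, so their direction is not independent, and their part in the values of the cluster was not tested. In whole leaves, a change in the share of a cell type and a change in RNA per cell cannot be told apart.

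The first question was which STS loci were already measurable in control leaves. Of the 39 probes, 37 were well above background on all 6 arrays and none was saturated. The CTRL mean level of these 37 ran from -4.96 to 4.04 with a median of 1.22, and 28 of them lay above the 75th percentile of all features. Before scaling, their processed signals on the CTRL arrays ran from 26.7 to 29600 with a median of 3000.0. Most of the cluster was bright in leaves that had not received NAC61. Levels of different probes do not rank the genes, since probes differ in how well they bind.

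The remaining 2 probes were dim. VIT_16s0100g00970 passed the background test on none of the arrays, with processed signals of 2.90, 3.38 and 3.20 in CTRL and 2.32, 2.46 and 3.45 in OX.NAC61, and was not tested. VIT_16s0100g01080 was well above background on the OX.NAC61 arrays only, at levels of -6.73, -7.35 and -6.96, against -7.29, -6.97 and -6.96 in CTRL. The groups overlapped, and no fold is given because the CTRL values are only bounds. The OX.NAC61 mean of -7.01 lay below the mean CTRL detection floor of -6.71.

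**Figure D1:**
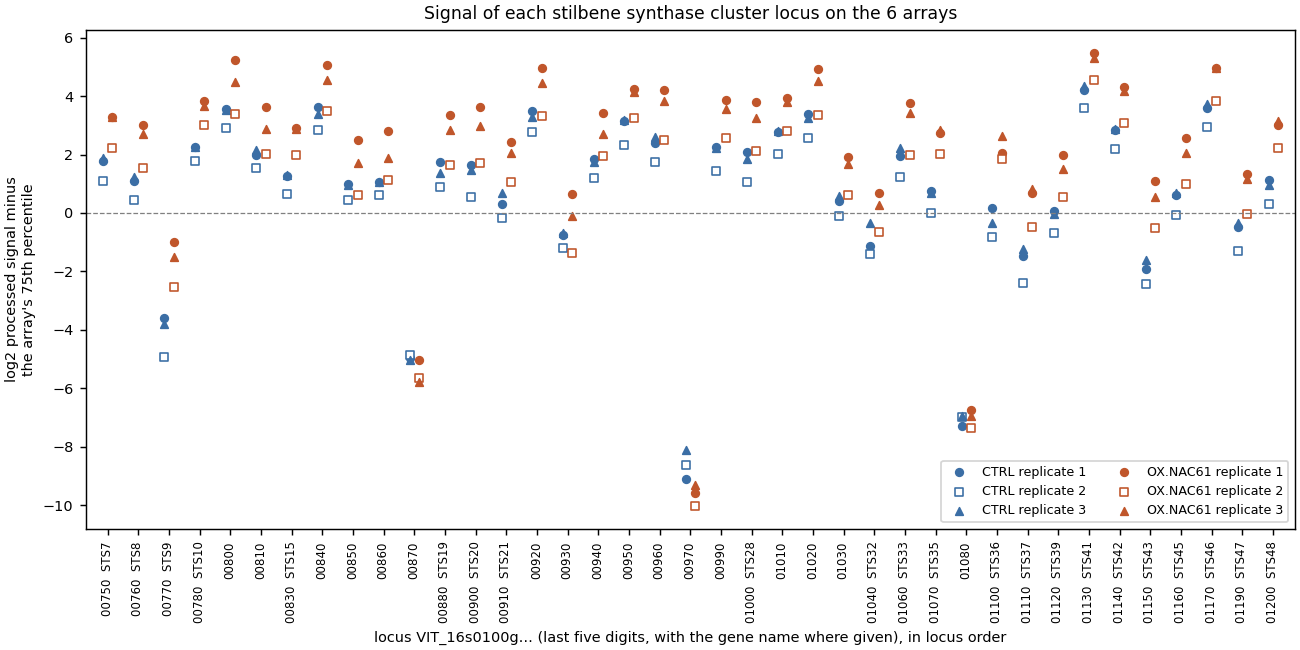
Log2 processed signal minus the 75th percentile of the array (vertical axis) for the 39 loci of the cluster in locus order (horizontal axis). Blue symbols are the 3 CTRL arrays and orange symbols the 3 OX.NAC61 arrays, open squares mark replicate 2 of each group, and the dashed line is the 75th percentile of the array. Most loci lie above that line in CTRL, 00970 and 01080 lie at the bottom, and the open squares are the lowest symbol of their group at nearly every locus. Heights of different probes are not comparable.

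The main comparison asked which loci changed in OX.NAC61. Of 38 tested loci 37 had a higher mean in OX.NAC61, where 43.7% of all 27052 tested features did. One of the 37 is VIT_16s0100g01080, whose direction is not measured because its CTRL values are bounds, and among the 37 loci detected on every array 36 were higher. The median log2 fold change was 1.26, a 2.40-fold higher signal, against -0.05 over all features. Limma called 10 loci, every one of them higher, by the criteria of a fold above 1.5 and an adjusted p (Benjamini-Hochberg over all features) below 0.1. These 10 are 26.3% of the 38, while 6.81% of all features were called and 3.09% were called higher. The 3 OX.NAC61 arrays all lay above the 3 CTRL arrays for 25 loci, where 9.88% of all features did so: all 10 called loci and 15 of the 28 others. The interval had been examined in these data before, so its counts and median are a description and not independent support.

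**Figure D2:**
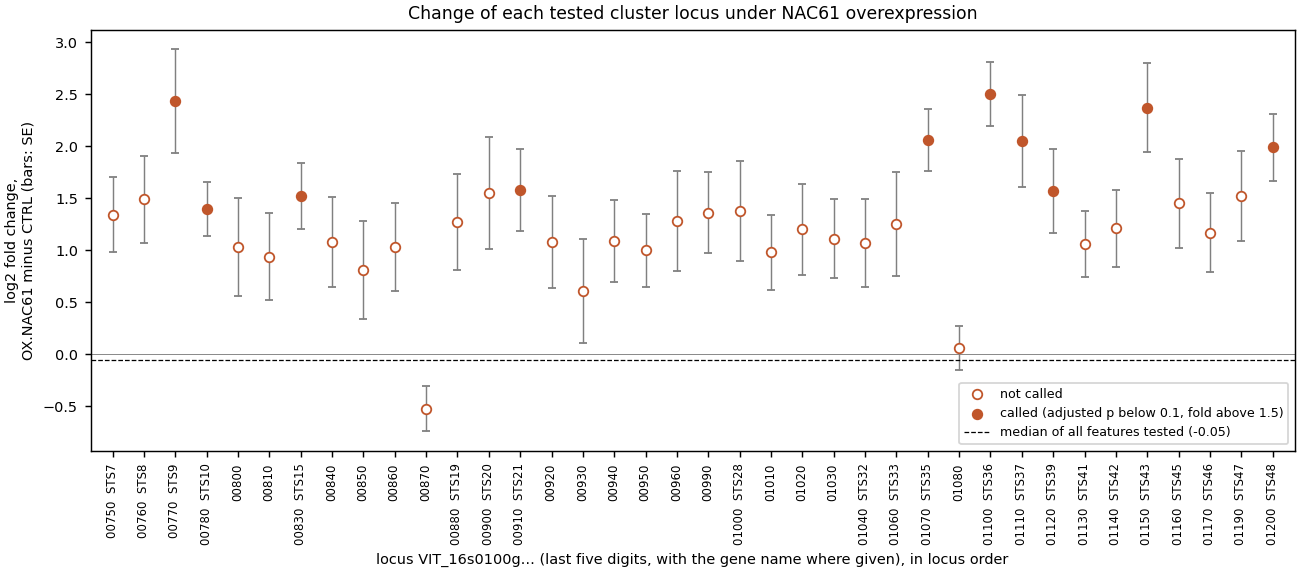
Log2 fold change, OX.NAC61 minus CTRL, with its standard error from limma (vertical axis) for the 38 tested loci in locus order (horizontal axis). Filled points are the 10 called loci, open points the 28 others, and the dashed line is the median of all tested features at -0.05. The points lie between -0.52 and 2.50, with 1 below 0. The point of 01080 is no measured fold, since its CTRL values are bounds.

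STS36 (VIT_16s0100g01100) had the smallest adjusted p of the cluster. Its levels were 0.17, -0.82 and -0.34 in CTRL and 2.05, 1.86 and 2.62 in OX.NAC61. All 3 OX.NAC61 plants were far above the controls, and replicate 2 was only slightly behind the others. The rise was 5.66-fold, or 2.50 ± 0.31 (SE) in log2 units (limma adjusted p 0.0284).

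STS35 (VIT_16s0100g01070) and STS48 (VIT_16s0100g01200) had nearly parallel values. STS35 stood at 0.75, 0.00 and 0.67 in CTRL and at 2.73, 2.02 and 2.85 in OX.NAC61, a 4.17-fold rise (limma adjusted p 0.0337). STS48 stood at 1.13, 0.31 and 0.97 in CTRL and at 3.0, 2.24 and 3.14 in OX.NAC61, a 3.97-fold rise (limma adjusted p 0.0394). In both genes replicate 2 was the lowest array of each group, and the groups lay well apart. These 2 genes and STS36 were the members with an adjusted p below 0.05, a threshold at which 2.43% of all features were called.

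STS9 (VIT_16s0100g00770) and STS43 (VIT_16s0100g01150) were called from a low base. STS9 had control levels of -3.59, -4.94 and -3.81, well under the 75th percentile, and reached -1.01, -2.54 and -1.51 in OX.NAC61. Its rise was 5.37-fold or 2.43 ± 0.50 (SE) in log2 units (limma adjusted p 0.0638), but with the deposited log2 values it was 1.19 in log2 units (limma adjusted p 0.0846). With normexp and 75th percentile scaling it was 0.73 and not called (limma adjusted p 0.549). STS43 went from -1.91, -2.43 and -1.6 to 1.1, -0.50 and 0.55, a 5.16-fold rise (limma adjusted p 0.0512). In both genes OX.NAC61 replicate 1 was highest and replicate 2 lowest, and even that array lay above every control.

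STS37 (VIT_16s0100g01110) also started from a low base, with levels of -1.49, -2.39 and -1.25 in CTRL and 0.70, -0.47 and 0.81 in OX.NAC61. The rise was 4.15-fold (limma adjusted p 0.0694). Its neighbour STS39 (VIT_16s0100g01120) had levels of 0.07, -0.69 and -0.05 in CTRL and 1.97, 0.56 and 1.5 in OX.NAC61, a 2.96-fold rise that passed narrowly (limma adjusted p 0.0974).

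The remaining 3 called genes lie in the part of the cluster with lower locus numbers. STS10 (VIT_16s0100g00780) stood at 2.27, 1.79 and 2.27 in CTRL and at 3.84, 3.02 and 3.67 in OX.NAC61, a 2.64-fold rise (limma adjusted p 0.0529). STS15 (VIT_16s0100g00830) stood at 1.27, 0.64 and 1.31 in CTRL and at 2.92, 1.99 and 2.87 in OX.NAC61, a 2.87-fold rise (limma adjusted p 0.0652). For STS21 (VIT_16s0100g00910) the CTRL levels were 0.31, -0.18 and 0.67 and the OX.NAC61 levels 2.42, 1.07 and 2.06, a 2.99-fold rise (limma adjusted p 0.0936). The groups lay apart for all 3 genes, and replicate 2 was again the lowest array of each group.

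Of the 28 tested loci that were not called, 27 were detected on every array, with log2 fold changes from -0.52 to 1.55, a median of 1.11 and adjusted p from 0.112 to 0.555. STS20 (VIT_16s0100g00900) had a larger log2 fold change, 1.55, than STS10, but its OX.NAC61 levels of 3.64, 1.70 and 2.97 came down on replicate 2 to just above its highest CTRL level (1.65, 0.53 and 1.48), and its limma adjusted p was 0.182. STS47 (VIT_16s0100g01190) had 1.52 (limma adjusted p 0.126) and STS8 (VIT_16s0100g00760) 1.49 (limma adjusted p 0.121), each with its groups apart. STS8 stood at 1.11, 0.44 and 1.23 in CTRL and at 3.01, 1.55 and 2.69 in OX.NAC61, and STS47 at -0.49, -1.31 and -0.33 against 1.32, -0.04 and 1.15. STS7 (VIT_16s0100g00750) lay just outside the threshold, at 1.34 with an adjusted p of 0.112 by limma.

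The lowest values belonged to loci without a name here. VIT_16s0100g00870, a dim probe, was the only tested member with a lower mean in OX.NAC61. Its levels were -4.98, -4.86 and -5.05 in CTRL and -5.03, -5.64 and -5.77 in OX.NAC61, with a log2 fold change of -0.52 (limma adjusted p 0.261). VIT_16s0100g00930 had -0.74, -1.21 and -0.70 in CTRL against 0.66, -1.38 and -0.10 in OX.NAC61, so that replicate 2 lay below every control (log2 fold change 0.61, limma adjusted p 0.555).

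The counts of calls turned on single arrays. Without CTRL replicate 2 and without CTRL replicate 3 limma called 0 members, with 16 and 26 of 38 at an unadjusted p below 0.05, while 0.262% and 0.813% of all features were called. Without OX.NAC61 replicate 3 it called 1, STS36, beside 1.21% of all features. Without CTRL replicate 1 it called 4, beside 3.81% of all features. Without OX.NAC61 replicate 1 it called 8 (1 of them lower, VIT_16s0100g00870), beside 11.9% of all features, with 3.9% of all features called higher. Without OX.NAC61 replicate 2 it called 23, beside 2.61% of all features. The direction held in each case for 36 or 37 of the 38 loci, and the median log2 fold change ran from 0.96 to 1.68.

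Position along the cluster was described by splitting the 39 loci into 3 consecutive blocks of 13. The block with the lowest locus numbers, up to STS20, had 3 calls of 13 tested and a median log2 fold change of 1.27. The middle block, from STS21 to STS32, had 1 call of 12 and a median of 1.1. The block with the highest numbers, from STS33 on, had 6 calls of 13 and a median of 1.52, and held STS35, STS36, STS37, STS39, STS43 and STS48. The shares called were 23.1%, 8.33% and 46.2% in locus order, against 6.81% of all features, and the middle block was near that share. Across the 38 tested loci the rank correlation of locus order with log2 fold change was 0.23, a weak relation over points that share the same arrays. The dim locus VIT_16s0100g01080 has STS35 on one side and STS36 on the other.

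Loci on either side of the cluster were read in the same way. Of 19 flanking features, those with a locus number up to 100 below or above the cluster, 17 were tested. Limma called 0 of these, with 3 at an unadjusted p below 0.05, and their median log2 fold change was 0.18. A higher mean in OX.NAC61 was seen for 14 of the 17, against 43.7% of all features. Some of these 14 were dim probes detected on 1 CTRL array. The nearest neighbour with a higher number, VIT_16s0100g01210, annotated as a hexuloisomerase, had 2.05, 2.29 and 1.97 in CTRL and 1.52, 1.46 and 1.62 in OX.NAC61, a log2 fold change of -0.57 (limma adjusted p 0.101). On the other side VIT_16s0100g00740 was detected on 1 CTRL array and 2 OX.NAC61 arrays, so no fold is given. The difference between cluster and flanks was not tested.

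Change was also set against the control level. Over the 37 loci detected on every array the rank correlation between CTRL mean level and log2 fold change was -0.40. The control mean enters both quantities with opposite sign and probes differ in binding, so the value describes these probes only. The called loci had CTRL means from -4.11 to 2.11 with a median of 0.03. Those not called ran from -4.96 to 4.04 with a median of 1.67, and the brightest control signals, STS41 at 4.04 and STS46 at 3.43, went with log2 fold changes of 1.06 and 1.17 (limma adjusted p 0.138 and 0.159).

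OX.NAC61 replicate 2 showed the weakest response of the 3 plants at nearly every locus. It was the lowest OX.NAC61 array for 37 of 38 tested loci, where it was lowest for 36.6% of all features. The exception was VIT_16s0100g00870, which was lowest on replicate 3. Measured from the CTRL mean, the median difference over the loci was 1.87 on replicate 1, 0.43 on replicate 2 and 1.56 on replicate 3, or 3.66-fold, 1.35-fold and 2.95-fold. Replicate 1 was the highest array for 33 loci, where it was highest for 40.4% of all features.

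**Figure D3:**
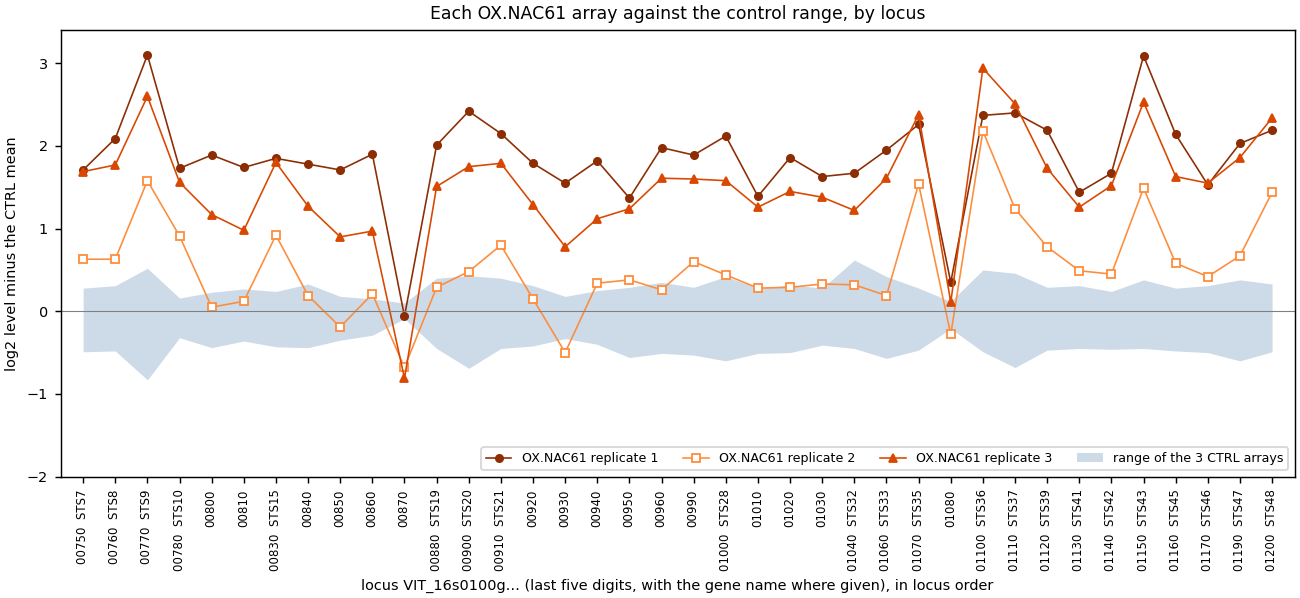
Log2 level minus the CTRL mean (vertical axis) on each OX.NAC61 array for the 38 tested loci in locus order (horizontal axis). The shaded band is the range of the 3 CTRL arrays. Replicates 1 and 3 run above the band at nearly every locus, while replicate 2 (open squares) stays in or near it except at peaks such as STS9, STS35, STS36, STS43 and STS48.

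The shortfall was not the same at every locus. For 13 of the 38 loci replicate 2 did not exceed the highest CTRL array, and for 4 of them it lay below the CTRL mean, namely VIT_16s0100g00850 (-0.19), 00870 (-0.68), 00930 (-0.50) and 01080 (-0.28, against CTRL values that are bounds). At the other end STS36 was 2.18 above its CTRL mean on replicate 2, against 2.37 on replicate 1 and 2.94 on replicate 3. STS9 followed with 1.58, STS35 with 1.54, STS43 with 1.49, STS48 with 1.44 and STS37 with 1.24. Among the loci detected on every array, the 10 called ones stood 0.78 to 2.18 above the CTRL mean on replicate 2 and the 27 others from -0.68 to 0.67. The call was made from these same values, so the split is a description of what the test selected.

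Replicate 2 was low among the controls as well. CTRL replicate 2 was the lowest control array for 36 of 38 loci, where it was lowest for 26.3% of all features. The median difference from the mean of the other 2 controls was -0.70, against 0.05 over all features. In OX.NAC61 the corresponding difference was -1.20, against -0.02 over all features. Both arrays numbered 2 were the lowest of their group for 36 loci, where 9.72% of all features showed this. By their headers these arrays share a slide, but the slide record is in doubt, the replicate number is also shared, and the arrays come from different plants, so slide, number and plant cannot be told apart.

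Values within a slide or scan day were compared next. On the slide recorded for both replicate 2 arrays, OX.NAC61 replicate 2 exceeded CTRL replicate 2 by a median of 0.93, where all features had -0.11. On the slide recorded for CTRL replicate 3 and OX.NAC61 replicates 1 and 3, the median differences were 1.66 and 1.27. Limma with slide, as recorded, for a block called 12 members and 2.18% of all features, and the median over members was 1.17. Within the first scan day OX.NAC61 replicate 1 exceeded the 3 controls by a median of 1.87. A block for scan day left 0 calls by limma, with 36 of 38 at an unadjusted p below 0.05, and the lowest adjusted p was 0.198. That fit called 13 of all 27052 features. The second day held no control, so this fit rests on replicate 1 alone. With both replicate 2 arrays left out, an alternative chosen after the data were seen, 37 of 38 loci were higher with a median of 1.47, and limma called 0 of them (36 at an unadjusted p below 0.05) and 41 of all features.

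The regulators of the pathway were read on the same arrays. MYB14 (VIT_07s0005g03340), an activator of STS genes, stood at -1.75, -2.77 and -2.69 in CTRL and at 0.55, -0.26 and 0.56 in OX.NAC61. MYB15 (VIT_05s0049g01020), which also activates them, stood at 0.06, -0.64 and -0.59 in CTRL and at 1.26, 0.40 and 1.79 in OX.NAC61. WRKY03 (VIT_01s0010g03930) had 0.05, -0.57 and -0.55 in CTRL against 1.56, 1.25 and 1.90 in OX.NAC61, and WRKY43 (VIT_14s0068g01770) had -3.93, -4.79 and -3.73 against -2.24, -2.55 and -1.88. Limma called all 4 higher, where 3.09% of all features were called higher. The study had named MYB14, WRKY03 and WRKY43 as up-regulated on these arrays, so their calls are not independent. All 4 had their lowest value of each group on replicate 2, as 9.72% of all features did. In CTRL, however, replicate 3 lay close to replicate 2 for MYB14, MYB15 and WRKY03. The median rise of the 4 regulators on OX.NAC61 replicate 2 was 1.6, against 1.91 and 2.26 on replicates 1 and 3. NAC61 itself was lowest on replicate 1, not on replicate 2.

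**Figure D4:**
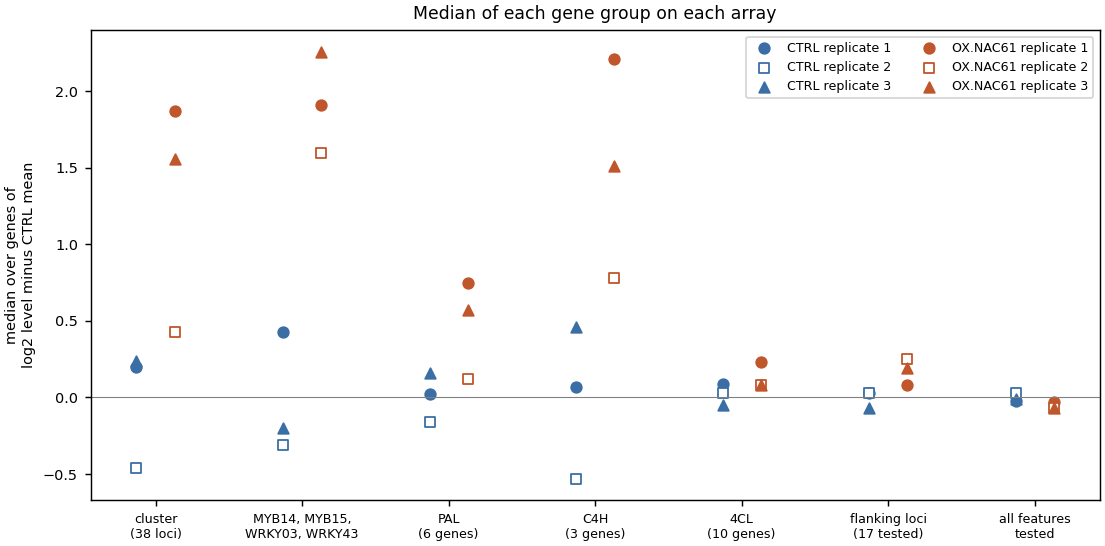
Median over genes of the log2 level minus the CTRL mean (vertical axis) on each of the 6 arrays, for the 38 tested loci of the cluster, 4 regulators, 6 PAL, 3 C4H and 10 4CL genes, 17 flanking loci and all 27052 tested features. Blue symbols are CTRL and orange symbols OX.NAC61, and open squares mark replicate 2. In the cluster replicate 2 lies at 0.43 in OX.NAC61 and at -0.46 in CTRL, while all features lie close to 0 on every array.

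The enzymes that supply the substrate of STS differed among themselves. Of 21 pathway genes taken from the study's annotation (6 PAL, 3 C4H, 10 4CL, 1 chalcone synthase (CHS) and 1 resveratrol O-methyltransferase (ROMT)), 16 had a higher mean in OX.NAC61, against 43.7% of all features, with a median log2 fold change of 0.21. Limma called 1 higher and 0 lower, or 4.76%, which is near the 3.09% of all features called higher. The study, with its own processing, reported several PAL genes as up-regulated on these arrays. Of the 6 PAL genes here, only VIT_16s0039g01240 (3.10-fold) and VIT_16s0039g01300 (2.26-fold) exceeded 1.5-fold. The list therefore appears to lack some of the PAL genes that the study reported. Its share describes these 21 genes and not the supply of substrate as a whole. The called gene was the PAL VIT_16s0039g01240, at 1.12, 0.48 and 1.20 in CTRL and 3.0, 1.71 and 2.99 in OX.NAC61, a 3.10-fold rise (limma adjusted p 0.0923). Like the STS loci, it was lowest on replicate 2 in both groups.

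Both C4H genes on chromosome 11 had folds of that size without passing, 2.90-fold for VIT_11s0065g00350 (limma adjusted p 0.102) and 3.10-fold for VIT_11s0078g00290 (limma adjusted p 0.120), whereas VIT_06s0004g08150 stood at 0.977-fold. The 4CL genes had a median log2 fold change of 0.10. CHS (VIT_14s0068g00920), of the flavonoid branch, had a log2 fold change of 0.65 with overlapping groups (limma adjusted p 0.582). ROMT (VIT_10s0003g00470), which methylates resveratrol to pterostilbene, had 0.89 (limma adjusted p 0.477).

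The STS genes of the smaller group on chromosome 10 that the study's annotation named were set beside the cluster. STS1 (VIT_10s0042g00840) had 0.89, 0.20 and 1.15 in CTRL and 2.86, 1.22 and 2.39 in OX.NAC61 (log2 fold change 1.41, limma adjusted p 0.162). STS4 (VIT_10s0042g00910) had 2.72, 1.98 and 2.72 in CTRL and 4.32, 2.98 and 3.91 in OX.NAC61 (log2 fold change 1.27, limma adjusted p 0.145). Neither was called, and both were lowest on replicate 2 in each group, as in the cluster.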

How the data were processed

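RNA of grapevine leaves was hybridised to 6 one-colour Agilent 44K arrays, 3 per group, and according to the methods each array is its own plant. The authors deposited scanner output of Feature Extraction 10.5.1.1 with intensity values as background-subtracted processed signals, not normalised between arrays, together with detection, saturation and outlier marks. The authors also deposited a log2 table of 26157 probes, with column medians of 9.61 or 9.62, whose values rank as the median signals do once local background is subtracted. Its normalisation is not given in the sources used here, although the labels name limma, and it served as an alternative.

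Control spots were excluded, and outlier spots were treated as missing (81 features, no member). The log2 processed signal was scaled by the 75th percentile of each array. A minimum of 3 arrays well above background left 27053 features, of which 27052 could be fitted by lmFit and eBayes of limma 3.58.1 (R 4.3.3), two-sided and without covariates. Calls needed a fold above 1.5 and an adjusted p (Benjamini-Hochberg) below 0.1, the thresholds of the study. The fit was also run on simulated data with noise independent between features, which says nothing of deviations that features share on an array. The number of arrays limits the precision.

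Members, gene lists and tests were chosen with earlier results of these data known. Values on every array are given for called members, members with a lower mean, members dark in CTRL, and the 3 highest uncalled and 3 lowest tested members. Other members are given by range and count, apart from STS7, STS41 and STS46, chosen after their values were seen, as were STS1 and STS4 on chromosome 10. STS names follow the functional annotation, which for some loci differs from the symbol column. Gene names and loci are of the 12X gene models, and no reference genome was used. Alternatives changed the background correction, scaling, filter, values, blocks, variance model, thresholds or arrays.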

Additional observations from a re-analysis of the deposited data

How the results depend on the processing

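The direction of the cluster held under every alternative run, with 36 or 37 loci higher in OX.NAC61 and a median log2 fold change from 0.96 to 1.87, the last with scan day as a block. The shortfall of OX.NAC61 replicate 2 lay between -1.23 and -1.17. The count of called members did not hold. It was 0 with normexp at offset 50 and 75th percentile scaling (30 at an unadjusted p below 0.05), where 0 of all 27052 features were called, and 0 with scan day as a block (36 at an unadjusted p below 0.05), where 13 features were called. It was 32, of which 1 was lower, when marked local backgrounds were replaced by the array median in normexp. In that setting 19.6% of all features were called, and 3.07% of all features were called higher. The count of called members was 17 with an intensity trend in the variance (8.41% of all features), and 3 at an adjusted p below 0.05 (2.43% of all features). These 2 normexp settings moved the median of all features to -0.50 and -0.21. The cause was not tested. Leaving out 1 array, the count ran from 0 to 23, members higher from 36 to 37, and the median from 0.96 to 1.68, and with both replicate 2 arrays left out the count was 0. With the replicate block 23 were called (3.77% of all features), of which 10 were among the calls reported. The numbers were not taken as pairs, because the deviations from the group means correlated at 0.21, -0.04 and 0.21 for arrays of equal number and not every array correlated best with its own. The other alternatives gave 8 to 14 calls, where 2.18% to 7.61% of all features were called.

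VIT_16s0100g01080 changed sign, to -1.79 and -0.61 with the 2 normexp settings under 75th percentile scaling, to -0.10 with the recorded slide as a block, and to -0.08 at the lowest without 1 array, and stood at 0.28 without both replicate 2 arrays. Its probe was above background on no CTRL array, so these log2 differences are no measured folds and their sign says nothing of the locus. The 2 dim members limit what the arrays show of their loci. Members can be close copies, and without probe sequences signal shared between them cannot be told from shared expression.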

Other observations

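The 37 loci detected on every array were compared in pairs by the shape of their values over the 6 arrays, after each locus had been centred on its own mean. In 16 of 666 pairs no array differed by more than 0.15 log2 units, and these pairs held 21 loci. The closest were VIT_16s0100g00840 and VIT_16s0100g00920, which differed by at most 0.0391, followed by STS35 and STS48 at 0.0823. Of the 16 pairs 1 was adjacent. Their median gap in locus order was only slightly below that of all 666 pairs. The share of adjacent pairs among all 666 was not counted, so nothing about arrangement is read from the 1 adjacent pair. Whether close pairs lie nearer together was not tested. The tolerance was chosen after the data were seen.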
